A study of Mus musculus with 1111 samples.

Results

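The proteasome genes of mouse microglia were followed over 3 groups of single cells that differed in their uptake of labelled plasma protein. Members were all genes of the deposited tables named as proteasome subunits of the Psma, Psmb, Psmc, Psmd, Psme, Psmf and Psmg series, without the interferon-inducible Psmb8 and Psmb9. They came to 47 of 35583 genes. Of these, 7 form the alpha ring and 7 the beta ring of the 20S core, 9 the base and 8 the lid of the 19S regulatory particle. A further 3 are inducible or tissue-restricted core subunits, 6 are activators or the inhibitor, and 7 are assembly chaperones.

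The proteasome is the protease that degrades proteins marked with ubiquitin. Its barrel-shaped core cuts proteins inside a chamber closed by alpha rings, and the catalytic sites sit on the beta subunits Psmb5, Psmb6 and Psmb7. The regulatory particle caps the barrel: its base unfolds the substrate with a ring of ATPases, and its lid removes the ubiquitin chain. In macrophages, microglia included, proteins taken up from outside are broken down mainly in lysosomes, while the proteasome handles proteins of the cytosol and supplies peptides for antigen presentation.

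The cells were microglia from the brains of mice aged 3 months, isolated 20 hours after an injection of plasma proteins coupled to the fluorescent dye NHS-Atto647N. Fluorescence inside the cell set the groups plasma none, plasma low and plasma high, and each cell was sequenced with Smart-seq2, which makes 1 full-length cDNA library per well. All groups share the age and the injection, and no genotype, strain or sex is given in the sources used here. The labels also number the cells TH 1, TH 2 or TH 3 without saying what TH stands for.

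After filtering, 987 cells remained, which were 93.5% of the matched cells with no uptake, 94.6% of those with low and 95.4% of those with high uptake. They held 80757827, 98868490 and 102428398 reads in genes, in that order, and 290 of the cells were of plasma high. The median reads per cell were 207429, 229931 and 267143, and the median mitochondrial share of reads 0.603%, 0.794% and 0.970%, so that both were higher with uptake; their part in the results was not tested. No label names an animal, so each group is 1 sample of cells, and the groups are compared by size alone, without p-values. Reads were summed by group within each TH number, scaled to CPM (read counts relative to library size, with TMM factors), and compared as log2 ratios within TH number; errors are the SD over the 3 TH numbers and are not a spread between animals. The groups sat in different well columns (1 to 8, 9 to 16 and 17 to 23), so group and plate position cannot be told apart. The 8 microglial markers summed to between 46285 and 55453 CPM in all 9 sums, and the neutrophil and lymphocyte markers were at 0. Of 5 border macrophage genes Cd163, F13a1, Lyve1 and Pf4 were at 0, and with Mrc1 the list summed to 0 to 1.34 CPM in plasma none, 2.64 to 22.2 with plasma low and 0 to 4.50 with plasma high. The 4 oligodendrocyte markers, of which Mog was at 0, summed to 8.89 to 30.7 CPM in plasma none, 13.9 to 39.5 with plasma low and 22.2 to 71.3 with plasma high. The 4 neuronal markers reached 55.3 CPM in plasma high and no more than 2.32 in the other groups. The part of these cells in the results was not tested.

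Of the 47 members, 46 had a mean of at least 5 CPM and 41 of at least 20 CPM. A member was taken into a comparison if its mean was at least 20 CPM and at least 10% of the cells in 1 of the 2 groups held a read of it, which left 38 members for plasma high against plasma none and 39 for each of the other comparisons. It is said to have risen or fallen where the mean ratio reached 1.5-fold with the same sign in 3 of 3 TH numbers. The text calls this the size rule.

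Past this size in plasma high against plasma none were Psma1, Psma4, Psma5, Psmb7, Psmc3, Psmd2 and Psme3, which rose, and Psmc1, which fell. The upstream sequence of 6 of these is given here, as the members past the size that have an entry in RefSeq's table. The windows are RefSeq's on GRCm38.p6, up to 200 bases before the start site and cut where GENCODE's gene begins, written 5′ to 3′ on the gene's strand. Capitals mark CCAAT boxes (CCAAT on either strand), the motif bound by NF-Y, and GC boxes (GGGCGG on either strand), the motif bound by SP1.
Psma1, minus strand, chr7:114276119-114276316: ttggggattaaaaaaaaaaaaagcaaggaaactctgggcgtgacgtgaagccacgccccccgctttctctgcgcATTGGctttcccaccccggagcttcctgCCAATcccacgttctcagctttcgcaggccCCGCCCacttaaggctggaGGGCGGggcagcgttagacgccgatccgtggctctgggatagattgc
Psma4, plus strand, chr9:54950659-54950789: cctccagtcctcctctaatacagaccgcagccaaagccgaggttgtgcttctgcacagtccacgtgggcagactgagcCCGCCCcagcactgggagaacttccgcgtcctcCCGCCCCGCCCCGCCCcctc
Psma5, plus strand, chr3:108256726-108256925: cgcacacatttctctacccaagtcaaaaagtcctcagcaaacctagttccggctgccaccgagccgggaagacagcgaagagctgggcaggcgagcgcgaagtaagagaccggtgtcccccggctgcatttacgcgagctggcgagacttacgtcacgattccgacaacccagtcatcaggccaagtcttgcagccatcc
Psmd2, plus strand, chr16:20651452-20651651: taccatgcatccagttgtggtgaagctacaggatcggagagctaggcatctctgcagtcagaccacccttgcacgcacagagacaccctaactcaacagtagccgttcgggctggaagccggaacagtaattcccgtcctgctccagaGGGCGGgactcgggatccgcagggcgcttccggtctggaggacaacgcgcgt
Psme3, plus strand, chr11:101316013-101316212: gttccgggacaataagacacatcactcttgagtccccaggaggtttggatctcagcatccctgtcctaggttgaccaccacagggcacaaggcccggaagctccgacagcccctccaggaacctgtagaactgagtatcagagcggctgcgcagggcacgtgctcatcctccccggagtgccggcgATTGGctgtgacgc
Psmc1, plus strand, chr12:100110002-100110153: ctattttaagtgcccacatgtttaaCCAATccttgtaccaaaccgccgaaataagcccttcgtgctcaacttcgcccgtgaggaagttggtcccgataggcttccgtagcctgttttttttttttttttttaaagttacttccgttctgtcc
In these stretches Psma1 held 2 CCAAT boxes and 2 GC boxes, Psma4 held 4 GC boxes, of which 3 overlap, and Psma5 held neither. Psmd2 held 1 GC box, and Psme3, which rose, and Psmc1, which fell, held 1 CCAAT box each. Over whole windows of 300 bases, from 250 before to 50 after the start, 39 members had a RefSeq entry. A GC box was found in 22 of the 39 members (56.4%) and in 38.2% of all 27025 genes with a window, and a CCAAT box in 13 members (33.3%) and 41.1% of all genes. A match describes the letters only. Psma8, Psmb1, Psmb2, Psmb7, Psmc3, Psmd3, Psmd7 and Psmg2 had no entry.

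The antioxidant response element is the motif through which NFE2L1, the factor known to raise proteasome genes when the proteasome is inhibited, and its relative NFE2L2 act. Its core letters, TGACNNNGC on either strand, occurred in the windows of 6 of 39 members (15.4%: Psmb5, Psmb6, Psmc6, Psmd9, Psmd12 and Psme4) and of 13.99% of all genes, so the members' share lay near that of all genes. The matches that lie wholly upstream of both annotated starts are shown in capitals with up to 30 bases on each side.
Psmb5, minus strand, chr14:54618023-54618072: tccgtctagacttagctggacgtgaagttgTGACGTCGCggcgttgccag
Psmb6, plus strand, chr11:70525318-70525356: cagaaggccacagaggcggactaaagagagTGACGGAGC
Psmc6, plus strand, chr14:45329574-45329635: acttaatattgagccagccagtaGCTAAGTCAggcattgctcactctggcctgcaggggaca
Psmd12, plus strand, chr11:107479278-107479319: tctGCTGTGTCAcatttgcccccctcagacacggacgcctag
Of the 6 members with the letters, Psme4 met the size rule, in plasma low against plasma none and in plasma high against plasma low, Psmd9 was read in too few cells to compare, and the other 4 met it in no comparison. Nfe2l1 itself stood at 29.7 ± 11.6 CPM in plasma none, 38.9 ± 12.98 with plasma low and 26.4 ± 14.9 with plasma high, and Nfe2l2 at 244.7 ± 81.4, 243.5 ± 14.5 and 181.6 ± 58.4. Neither met the size rule.

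The summed level of the 14 constitutive core genes was higher in both groups that had taken up plasma protein. It was 1318, 1218 and 1017 CPM in plasma none at TH 1, 2 and 3, 1448, 1405 and 1252 with plasma low, and 1484, 1555 and 1334 with plasma high. Each plasma high sum was above the highest plasma none sum, and plasma low overlapped both. The log2 ratio of plasma high over plasma none stood at 0.30 ± 0.12 (1.24-fold; 0.17, 0.35 and 0.39 by TH number), that of plasma low to plasma none 0.21 ± 0.083 (1.16-fold), and that of plasma high to plasma low 0.091 ± 0.056 (1.07-fold). All 3 ratios were above 0 in 3 of 3 TH numbers. The core ratio of plasma high to plasma none remained above 0 in 3 of 3 TH numbers whichever of the 14 genes was left out, with a lowest mean of 0.24 without Psma1.

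The 17 genes of the regulatory particle did not differ in the same way. They do not include Adrm1 and Sem1, which are bound to the proteasome but fall outside the members' names. The 17 genes summed to 1693, 1447 and 1306 CPM in plasma none, 1591, 1764 and 1289 with plasma low, and 1562, 1653 and 1357 with plasma high. The groups thus overlapped throughout. The log2 ratio was 0.044 ± 0.16 for plasma high against plasma none and 0.059 ± 0.20 for plasma low against plasma none, and in each the TH numbers differed in sign. The core therefore stood higher against the particle in plasma high than in plasma none, by 0.26 ± 0.091 on the log2 scale (0.29, 0.16 and 0.34). For plasma low against plasma none that difference was 0.15 ± 0.21, with 1 TH number below 0. Counting error alone was small beside the spread between TH numbers: over all cells the pooled core level had a 95% exact Poisson interval of 1180 to 1195 CPM in plasma none and of 1439 to 1454 in plasma high, which covers counting error only.

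Within the core, the alpha ring carried the steadier difference. Its 7 genes summed to 723 ± 32.4 CPM in plasma none, 852 ± 75.7 with plasma low and 922 ± 70.3 with plasma high, and every plasma low and plasma high sum was above every plasma none sum. The ratio of plasma high over plasma none came to 0.35 ± 0.059 for the alpha ring and 0.25 ± 0.33 for the beta ring, where TH 1 lay at -0.086 and TH 3 at 0.58. The difference between the rings was 0.097 ± 0.36, less than its own spread. Within the particle base and lid differed in plasma high against plasma none: the base stood at -0.046 ± 0.15 and the lid at 0.16 ± 0.18, and the base lay below the lid in 3 of 3 TH numbers (-0.20 ± 0.10). In plasma low against plasma none the base lay above the lid in 3 of 3 TH numbers, by 0.17 ± 0.24 (0.021, 0.44 and 0.035).

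**Figure D1:**
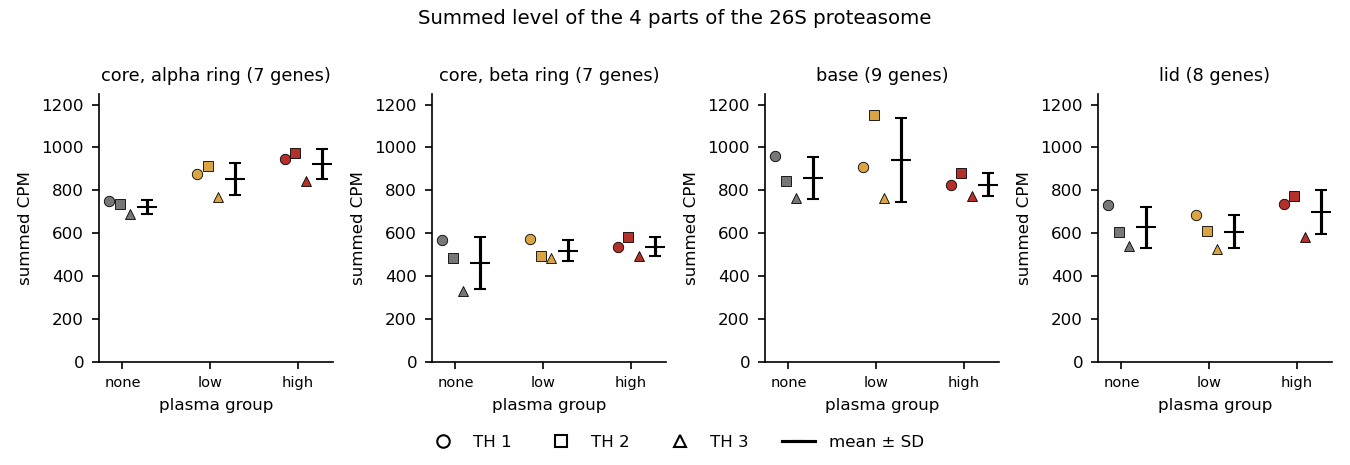
Summed CPM of the alpha ring, beta ring, base and lid genes in the 3 plasma groups. Each point is the sum over the cells of 1 TH number and the bar gives their mean ± SD. The alpha ring points of plasma low and plasma high all lie above those of plasma none, whereas the base and lid points overlap between groups.

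Scaling between libraries cancels in the core to particle ratio of summed CPM. This ratio restates, group by group, the log2 difference between core and particle given above and is no separate result. It was 0.779, 0.842 and 0.779 in plasma none, 0.910, 0.797 and 0.971 with plasma low, and 0.950, 0.941 and 0.982 with plasma high. The plasma high values lay above all plasma none values, and the plasma low value at TH 2 fell among those of plasma none.

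**Figure D2:**
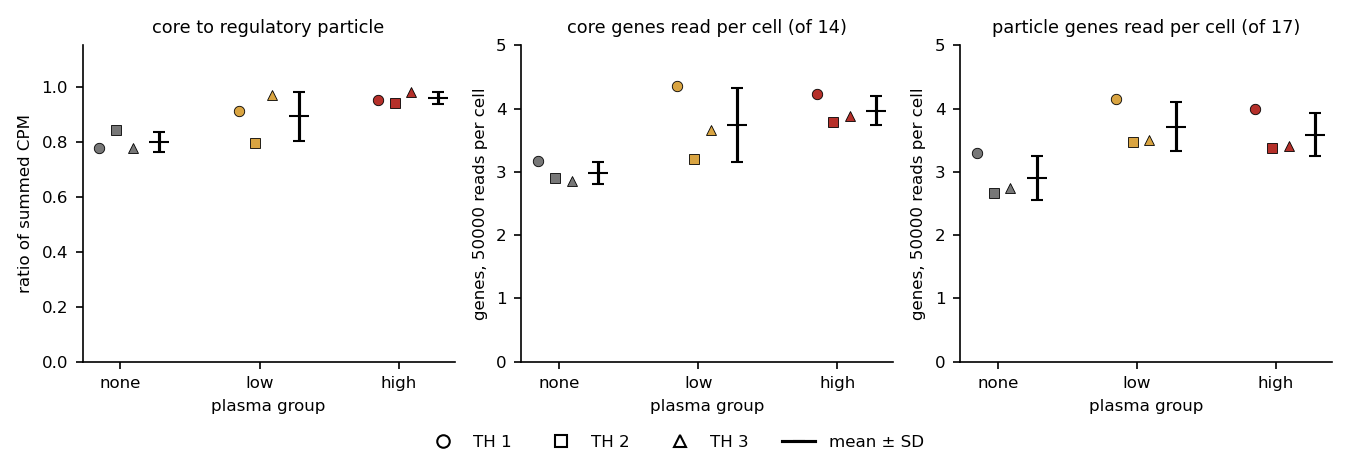
Left, ratio of the summed CPM of the core to that of the regulatory particle. Middle and right, mean number of core genes (of 14) and of regulatory particle genes (of 17) with a read per cell, with every cell thinned to 50000 reads. Points are TH numbers, bars mean ± SD. The ratio is highest in plasma high, and more genes of both kinds were read per cell in plasma low and plasma high than in plasma none at the same TH number.

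Per cell, few subunit genes were seen at a time. With each cell thinned to 50000 reads, a mean of 2.98 ± 0.17 of the 14 core genes had a read in plasma none, 3.74 ± 0.58 with plasma low and 3.97 ± 0.24 with plasma high. Without thinning the means were 3.18, 3.95 and 4.23. For the 17 genes of the particle the thinned means were 2.91 ± 0.34, 3.72 ± 0.39 and 3.59 ± 0.35. Over all genes the number was higher too, with 1535 ± 69.4 genes read per thinned cell in plasma none, 1757 ± 195.7 with plasma low and 1736 ± 148.7 with plasma high, and the part of that in the subunit counts was not tested. Relative to 1000 genes with a read, core genes numbered 1.93 ± 0.092, 2.11 ± 0.087 and 2.30 ± 0.094, with every plasma high value above every plasma none value. The same measure for the particle was 1.88 ± 0.15, 2.11 ± 0.14 and 2.04 ± 0.10, and there plasma none and plasma high overlapped.

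Among single members, 7 of 38 rose in plasma high against plasma none (18.4%), where 9.30% of the 5551 genes in that comparison did. The fall was met by 1 member of 38, against 6.94% of all genes. At any size, 13 members were higher in 3 of 3 TH numbers (34.2%, against 18.7% of all genes) and 2 were lower (5.26%, against 13.7%). Of the 14 core genes 6 were higher in 3 of 3 and none lower; of the 17 particle genes 5 were higher and 2 lower. The median ratio was 0.30 ± 0.13 for the core, 0.10 ± 0.17 for the particle, 0.18 ± 0.18 for the 46 members with at least 5 CPM, and 0.026 over all genes with at least 5 CPM.

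**Figure D3:**
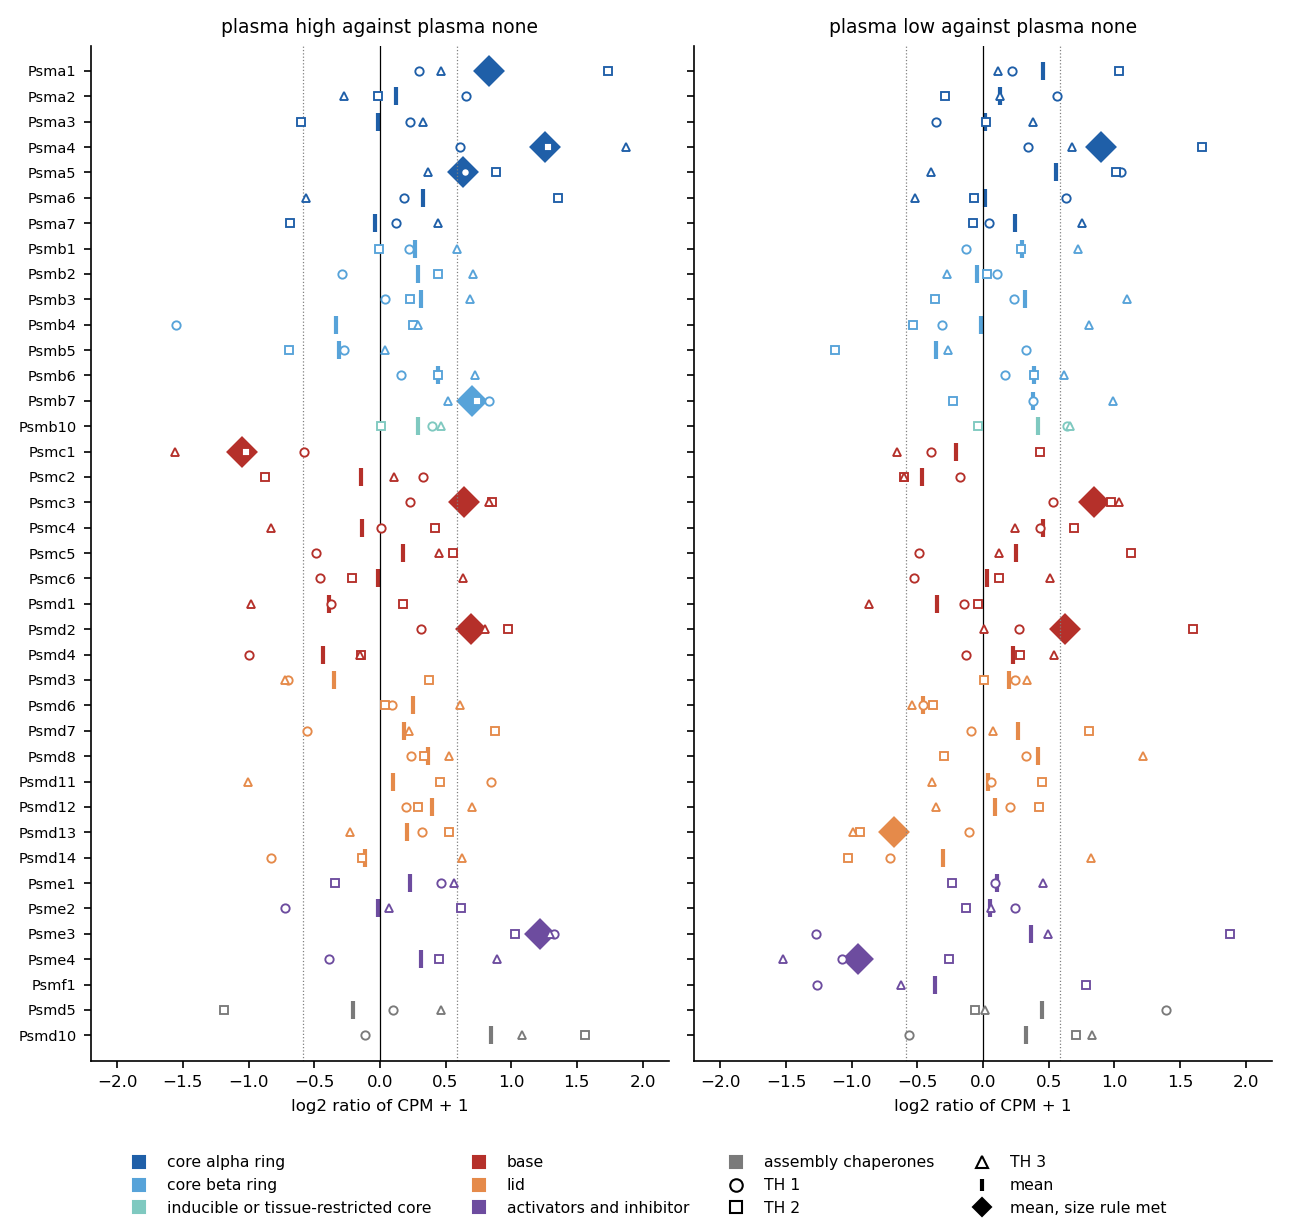
Log2 ratio of CPM + 1 for each member taken into a comparison, by role, in plasma high (left) and plasma low (right) against plasma none. Open symbols are the 3 TH numbers, bars their mean, and filled diamonds means that met the size rule; dotted lines mark 1.5-fold. In plasma high against plasma none 7 diamonds lie to the right and 1, Psmc1, to the left. In plasma low against plasma none 3 lie to the right and 2 to the left.

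In the alpha ring the genes that rose were Psma4, Psma1 and Psma5, all structural subunits of the ring. Psma4 (chr9:54950790-54958030 on GRCm38, as are all gene positions here) stood at 76.1, 33.1 and 22.4 CPM in plasma none, at 96.8, 107.3 and 36.5 with plasma low and at 116.9, 81.7 and 84.8 with plasma high. All 3 plasma high values were above all plasma none values, and plasma low overlapped both. It rose by 1.25 ± 0.63 on the log2 scale in plasma high and by 0.90 ± 0.69 in plasma low against plasma none; the second mean is 0.51 without TH 2, under the size set.

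Psma1 (chr7:114264606-114276118) was at 127.5, 81.3 and 140 CPM in plasma none, 148.6, 167.5 and 151.3 with plasma low, and 156.9, 272.98 and 193.6 with plasma high. Every plasma high and plasma low value was above every plasma none value. The rise in plasma high was 0.83 ± 0.79, and it rested on TH 2: without it the mean was 0.38. A read of Psma1 was found in 22.8% of the cells with no uptake, 29.3% with low and 38.6% with high uptake, and thinned to equal depth in 21.4%, 28.8% and 35.9%.

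Psma5 (chr3:108256926-108279974) had 30.7, 40.1 and 63.7 CPM in plasma none, 64.7, 81.98 and 48.2 with plasma low, and 48.8, 74.9 and 82.6 with plasma high, with overlap between all groups. It rose by 0.64 ± 0.26 in plasma high. The mean was 0.51 without TH 2, under the size set, and 0.93 with cells thinned to equal depth. Psma2, Psma3, Psma6 and Psma7 did not meet the size rule, with means between -0.04 for Psma7 and 0.33 for Psma6. Psma7 was at 89.8, 86.7 and 45.1 CPM in plasma none, 92.4, 82.4 and 76.6 with plasma low and 98.1, 53.6 and 61.5 with plasma high, with overlap throughout. Psma2, the lowest of the ring per transcript length, was at 90.5 ± 15.8, 99.1 ± 16.02 and 100.8 ± 29.1 CPM. Psma4 and Psma5 share exon bases with a gene on the opposite strand, and whether the counting used strand is not given in the sources used here.

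Of the 3 constitutive catalytic subunits, Psmb7 (chr2:38588036-38644087), which carries the trypsin-like site, rose in plasma high. It had 17.5, 26.05 and 18.9 CPM in plasma none, 23.02, 22.03 and 38.5 with plasma low, and 31.9, 44.3 and 27.5 with plasma high. The plasma high values were above those of plasma none, and plasma low overlapped both. The mean ratio was 0.70 ± 0.16, 0.51 when each cell weighed the same and 0.49 with thinned cells, both under the size set. Psmb7 was read in 9.83% of plasma none and 14.1% of plasma high cells, and shares exon bases with Nek6 on the opposite strand.

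Psmb6, with the caspase-like site, stood at 100.6, 116.9 and 74.1 CPM in plasma none, 113.4, 153.6 and 113.9 with plasma low, and 112.8, 160 and 123.4 with plasma high. It was higher in 3 of 3 TH numbers in both groups with plasma (0.45 ± 0.28 and 0.39 ± 0.22), below the size set. Psmb5, with the chymotrypsin-like site, had 19.4, 39.1 and 33.6 CPM in plasma none, 24.6, 17.4 and 27.7 with plasma low, and 15.9, 23.8 and 34.5 with plasma high. Its ratio was -0.31 ± 0.37 in plasma high and -0.36 ± 0.73 in plasma low, each within its spread. Of the other beta subunits Psmb3 was higher in 3 of 3 TH numbers (0.32 ± 0.33). Psmb4 had the lowest mean of the ring at -0.34 ± 1.05, with -1.55 at TH 1. It stood at 101.1, 66.9 and 38.6 CPM in plasma none, 81.1, 45.8 and 68.4 with plasma low and 33.8, 80.1 and 47.5 with plasma high, so the groups overlapped.

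Psmb10 is the inducible counterpart of Psmb7 in the immunoproteasome. It was at 53.6, 64.7 and 47.1 CPM in plasma none, 83.9, 62.8 and 75.3 with plasma low, and 70.9, 65.1 and 65.4 with plasma high. All plasma high values were above those of plasma none. It was higher in plasma high in 3 of 3 TH numbers (0.29 ± 0.25) without reaching the size. Per transcript length, the ratio of Psmb10 to Psmb7 was 2.37 ± 0.29 in plasma none, 2.49 ± 0.75 with plasma low and 1.79 ± 0.43 with plasma high. All its plasma none values were above those of plasma high, and plasma low overlapped both. For Psmb8, which lies outside the members and replaces Psmb5, the ratio to Psmb5 was 2.15 ± 1.10, 3.73 ± 0.63 and 4.82 ± 2.30, and all groups overlapped. By TH number it ran 3.37, 1.80 and 1.26 in plasma none and 7.05, 4.95 and 2.46 with plasma high. Each plasma high ratio thus exceeded the plasma none ratio of its own TH number. With plasma low it was 3.23, 4.44 and 3.53, of which the first fell below its plasma none counterpart. For Psmb9, also outside the members, the ratio to Psmb6 was 0.222 ± 0.10, 0.199 ± 0.078 and 0.179 ± 0.017, with overlap between all groups. Psma8, the testis-type alpha subunit, was at 9.37, 6.41 and 21.5 CPM in plasma none, 18.5, 27.6 and 12.5 with plasma low, and 3.76, 5.26 and 1.55 with plasma high. It was read in at most 3.45% of the cells of a group, too few for a comparison. Psmb11, the thymus subunit, had no read in any of 987 cells, which allows a share of up to 0.304% of cells with a read.

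In the base, 1 ATPase rose, 1 fell and the scaffold Psmd2 rose. Psmc3 (chr2:91054009-91066369) had 83.1, 73.3 and 49.1 CPM in plasma none, 120.7, 145.01 and 101.5 with plasma low, and 97.8, 133.02 and 88.2 with plasma high, and all values of the groups with plasma were above those of plasma none. It rose by 0.64 ± 0.35 in plasma high and by 0.85 ± 0.27 in plasma low. In plasma high the mean was 0.34 with thinned cells, 0.53 without TH 2 and 0.54 without TH 3, each under the size set. In plasma low it was between 0.73 and 1.003 under all 16 alternatives. Psmc3 shares exon bases with Slc39a13 on the opposite strand.

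Psmd2 (chr16:20651652-20663414) is a large scaffold subunit at the entrance of the base. It stood at 82.9, 72.2 and 68.3 CPM in plasma none, 100, 220 and 68.6 with plasma low, and 103.03, 142.5 and 119.4 with plasma high, so that plasma high lay above plasma none and plasma low spanned both. The rise was 0.69 ± 0.34 in plasma high and 0.63 ± 0.85 in plasma low. With thinned cells these means were 0.32 and 0.46, and without TH 2 they were 0.55 and 0.14, all under the size set.

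Psmc1 (chr12:100110154-100123405), an ATPase of the same ring as Psmc3, moved the other way. It had 61.6, 83.6 and 79 CPM in plasma none, 46.6, 113.02 and 49.7 with plasma low, and 41.01, 40.7 and 26.2 with plasma high. All plasma high values were below all others, and plasma low overlapped plasma none. It fell by 1.05 ± 0.49 in plasma high against plasma none and kept at least 1.5-fold under all 16 alternatives. The share of cells with a read was 20.8% in plasma none, 20.8% with plasma low and 18.6% with plasma high, so the lower level was not matched by a like drop in cells with a read. Psmd4, a receptor for ubiquitin chains, had 130, 101.5 and 55.5 CPM in plasma none, 118.8, 123.6 and 81.3 with plasma low, and 64.8, 91.5 and 49.9 with plasma high. Against plasma none, plasma high was lower in 3 of 3 TH numbers (-0.43 ± 0.49) without reaching the size.

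In the same comparison no lid gene met the size rule. Psmd6, Psmd8 and Psmd12 were higher in 3 of 3 TH numbers, by 0.25 ± 0.32, 0.37 ± 0.14 and 0.40 ± 0.27. With thinned cells the mean of Psmd6 was -0.17. Psmd12, with the largest mean of the lid, had 75.4, 110.97 and 87.4 CPM in plasma none, 87.3, 149.2 and 67.95 with plasma low, and 86.9, 135.6 and 142.5 with plasma high. Psmd3 had the lowest mean of the lid, at -0.35 ± 0.63, and its mean was 0.43 with the outermost wells left out. It had 71.7, 62.9 and 73.4 CPM in plasma none, 85.05, 63.4 and 92.8 with plasma low, and 43.7, 81.96 and 44.2 with plasma high, where TH 2 stood apart from the other values. Psmd14, the deubiquitinase of the lid, was at -0.11 ± 0.73.

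Of the activators, Psme3 (chr11:101316213-101323537), the subunit of the nuclear PA28 gamma cap, rose. It had 55.9, 13.8 and 29.6 CPM in plasma none, 22.5, 53.7 and 42.1 with plasma low, and 141.9, 29.2 and 74.2 with plasma high, with overlap between all groups. The ratio was 1.22 ± 0.17. A single cell of plasma high held 43.3% of that group's Psme3 reads, and with the top cell left out of every sum the mean was 0.60. Psme3 was read in 10.4% of the cells with no uptake, 9.69% with low and 12.1% with high uptake. Psme1 and Psme2, the interferon-inducible PA28 cap, stood at 0.23 ± 0.50 and -0.01 ± 0.67. Psme1 had 117.6, 120.9 and 74.2 CPM in plasma none, 124.97, 102.5 and 102.3 with plasma low, and 162.9, 95.4 and 110 with plasma high. Psme2 had 93.3, 71.4 and 75.05 CPM in plasma none, 110, 65.1 and 78.2 with plasma low, and 56.2, 110 and 78.8 with plasma high. For both genes all groups overlapped. Reads of Psme2 and of its intronless copy Psme2b may be split by the counting, so both are uncertain.

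In plasma low against plasma none, Psma4, Psmc3 and Psmd2 rose, 3 of 39 members (7.69%) where 6.08% of 5497 genes did, and Psmd13 and Psme4 fell, 2 members (5.13%) against 4.20%. At any size 7 members were higher in 3 of 3 TH numbers (17.9%, against 16.8%) and 5 were lower (12.8%, against 11.8%). These shares lie near those of all genes. Psme4 (chr11:30771726-30880361), the large PA200 activator, had 65.9, 39.2 and 80.6 CPM in plasma none, 30.8, 32.6 and 27.4 with plasma low, and 50.04, 54.1 and 150 with plasma high. All plasma low values were below all others. The fall in plasma low was 0.95 ± 0.64 in size, while plasma high against plasma none gave 0.32 ± 0.65.

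The lid subunit Psmd13 (chr7:140881968-140898643) had a like course, at 51.2, 69.5 and 79.3 CPM in plasma none, 47.6, 35.8 and 39.4 with plasma low, and 64.3, 100.8 and 67.7 with plasma high. It fell by 0.68 ± 0.50 in plasma low, where the mean was -0.34 with thinned cells, -0.55 without TH 2 and -0.52 without TH 3, each under the size set. Psmd13 shares exon bases with Sirt3 on the opposite strand. The comparisons with plasma none share its cells, so that they are not independent of each other.

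In plasma high against plasma low, Psmd6, Psmd13 and Psme4 rose, 3 of 39 members (7.69%) against 5.36% of 5705 genes, and Psmc1, Psmc4, Psmd4 and Psmf1 fell, 4 members (10.3%) against 5.68%. At any size 5 members were higher (12.8%, against 14%) and 5 lower (12.8%, against 13.1%) in 3 of 3 TH numbers. By the size rule no core gene rose or fell, whereas 3 of the 9 base genes, namely Psmc1, Psmc4 and Psmd4, fell. At any size 4 base genes, these and Psmc3, were lower in 3 of 3 TH numbers and none higher. Of the 14 core genes 1, Psma1, was higher in 3 of 3 and none lower. The ratios were 0.89 ± 0.53 for Psmd13, 1.27 ± 0.99 for Psme4 and 0.71 ± 0.39 for Psmd6. With thinned cells Psmd13 was at 0.43 and Psmd6 at 0.16, and without TH 3 Psmd6 was at 0.49. Psmd6 had 144.5, 79.9 and 70.3 CPM in plasma none, 105.03, 61.02 and 48.02 with plasma low, and 154.1, 82.3 and 108.1 with plasma high, and was lower in plasma low than in plasma none in 3 of 3 TH numbers (-0.46 ± 0.08). Psmc1 fell by 0.84 ± 0.64, with a mean of -0.54 without TH 2. Psmc4, an ATPase of the base, had 82.2, 52.6 and 67.9 CPM in plasma none, 111.3, 85.8 and 80.6 with plasma low, and 82.7, 70.9 and 37.7 with plasma high. It fell by 0.59 ± 0.43, close to the size set, and reached that size in 7 of 16 alternatives (-0.35 without TH 3). Psmd4 fell by 0.66 ± 0.22, from 107.9 ± 23.2 to 68.7 ± 21.1 CPM, with a mean of -0.56 without TH 1.

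Psmf1, the inhibitor PI31, had 18.7, 63.98 and 39.9 CPM in plasma low and 16.99, 36.2 and 16.6 in plasma high, overlapping at the low end. It fell by 0.72 ± 0.55, and without TH 3 the mean was -0.47. Against plasma none, at 46.3, 36.8 and 62.03 CPM, the ratio of plasma high was -1.08 ± 0.95, but the gene was read in at most 7.59% of the cells of these groups and was left out of that comparison.

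Of the assembly chaperones, only Psmd5 and Psmd10 were read widely enough to compare, and neither met the size rule. Psmd10 had the highest mean of the group, 0.84 ± 0.86 in plasma high against plasma none, with 1 TH number below 0, and Psmd5 stood at -0.21 ± 0.86. Psmd10 had 36.4, 33.7 and 27.5 CPM in plasma none, 24.3, 55.6 and 49.7 with plasma low, and 33.6, 101.3 and 59.3 with plasma high. Psmd5 had 35.8, 101.3 and 47.9 CPM in plasma none, 95.6, 97.2 and 48.3 with plasma low, and 38.4, 44.1 and 66.4 with plasma high. The groups overlapped for both. Psmg1 to Psmg4, which pair alpha subunits early in core assembly, and Psmd9 were read in fewer than 10% of the cells of every group. Psmg4, the lowest of them, was at 6.49 ± 5.92, 6.31 ± 1.46 and 3.24 ± 2.25 CPM. Pomp, the chaperone of core maturation, was at 115.6 ± 2.31 CPM in plasma none, 101.4 ± 11.5 with plasma low and 131.8 ± 36.3 with plasma high.

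Levels between genes are compared as CPM per kb of the principal transcript, averaged over the 9 sums. With this length the median was 71.3 for the 14 core genes and 49.5 for the 17 genes of the particle. It was 19.9 for the activators and the inhibitor, and 15.7 for the assembly chaperones. The gap between core and particle was not seen with all exon bases as the length, as given below. Per principal transcript Psmb6 was highest at 148.8 ± 32.3 (SD over 9 sums), then Psma1 at 133.2 ± 43.5, Psma6 at 105.6 ± 40.6 and Psmb2 at 103.7 ± 27.9. In the core the lowest were Psmb7 at 23.9 ± 7.76, Psmb5 at 29.2 ± 9.06 and Psma2 at 33.3 ± 6.53. The 14 core genes thus spanned 23.9 to 148.8 CPM per kb.

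The 17 particle genes were closer together, between 31.04 for Psmd13 and 68.4 for Psmd6. Psme1 and Psme2 stood with the core, at 100.99 ± 21.96 and 85.3 ± 19.7, and Psme4 was the lowest activator at 9.08 ± 5.91. In the order of the 48 genes with a read, Psmb8 and Psmb9 included, 0 of 47 neighbouring pairs had ranges that did not overlap, so the order is not resolved from one gene to the next. With all exon bases of a gene as the length, the ranks correlated with these by Spearman's rho of 0.877 across genes, which are not independent replicates. The middle core genes were then Psma4 at 30.7 and Psmb4 at 32.1 CPM per kb, and the middle particle gene was Psmc1 at 31.1. Psma6 was highest with that length at 89.1, followed by Psmb2 at 73.96 and Psma3 at 65.98. Psmb6 stood at 63.4 and Psma1 at 54.2.

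**Figure D4:**
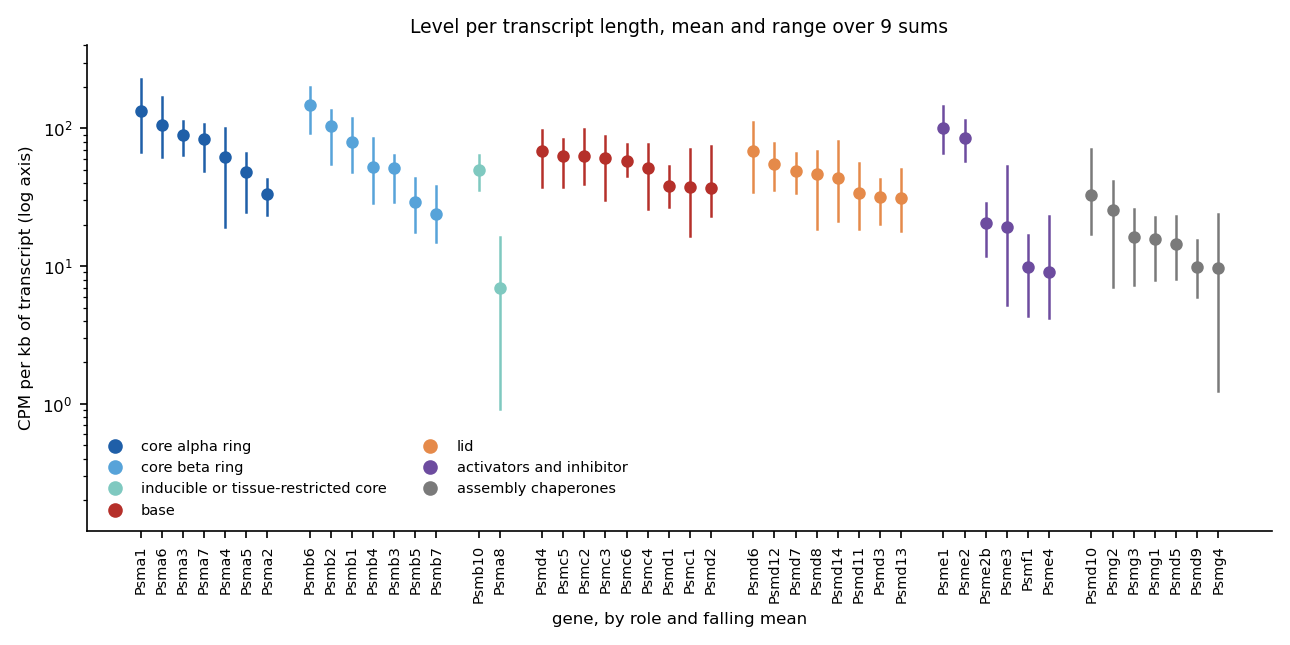
Level of each member with a read in CPM per kb of transcript (log axis), by role and falling mean. Points are means over the 9 sums of group and TH number, and lines run from the lowest to the highest sum. The core spans 23.9 to 148.8, the base and lid lie within 31.04 to 68.4, and 6 of the 7 chaperones lie at or below 25.4.

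Around the proteasome, of 10 receptors, deubiquitinases and shuttles compared in plasma high against plasma none, Ecpas and Ubqln1 rose (0.84 ± 0.84 and 0.61 ± 0.67) and none fell, where 9.30% of all genes rose and 6.94% fell. Of 5 genes of the segregase that extracts ubiquitylated proteins, Ufd1 fell (0.66 ± 0.68 in size). Of 23 ubiquitin-activating and conjugating enzymes, 5 were higher in 3 of 3 TH numbers, none was lower and none met the size rule, where 18.7% of all genes were higher and 13.7% lower in 3 of 3. For comparison with other complexes of many subunits, the median was 0.090 for 8 chaperonin genes, with 2 higher and 1 lower in 3 of 3 TH numbers, and -0.053 for 10 genes of the COP9 signalosome, of which 9 were compared and 1 was higher, to be read against the same 18.7% and 13.7%. In plasma low against plasma none the median was 0.14 ± 0.11 for the chaperonin and 0.37 ± 0.13 for the COP9 signalosome. That of the proteasome core was 0.27 ± 0.26 there. The difference between these complexes and the proteasome core was not tested.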

How the data were processed

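Smart-seq2 reads of single microglia were counted per gene by the authors, and the deposited tables hold these counts, per the file headers 1 column per cell. In 1 column 2 deposited values are not whole, for a reason not given in the sources used here, and that column was handled as estimated counts. Per the submitters' processing notes, which give no roles, mm10, bcl2fastq, Trim Galore, STAR 2.5.3a and Seurat were used; which tool counted reads, and whether by strand, is not given in the sources used here. Per the file headers, columns of TH 2 and TH 3 come from alignments restricted to top hits, and those of TH 1 do not. Of the labelled cells, 66 could not be matched to a column and were not analysed here.

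Cells with at least 50000 reads and 500 genes were kept, with no doublet caller. Counts were summed by group and TH number and scaled by TMM (edgeR 4.0.16, R 4.3.3); log2 ratios were taken of CPM plus a pseudocount of 1. List medians cover genes of at least 5 CPM. Transcript lengths came from GENCODE, promoters from RefSeq. Values are given for members past the size, the largest rise and fall of each role in plasma high against plasma none, the catalytic subunits, and the highest and lowest of each role per length; other genes named were chosen after their values were seen. The members and lists were chosen with earlier results of these data known. The result of 1 list is not reported here. Reads carry no molecular identifiers, so intervals cover counting error only. The scripts were tested on simulated data. Alternatives covered scaling, with DESeq2 1.42.0 among them, pseudocount, cell and gene filters, depth, wells, single cells, TH numbers and fold size.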

Additional observations from a re-analysis of the deposited data

How the results depend on the processing

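The core ratio kept its sign in 16 of 16 alternatives in every comparison, from 0.26 to 0.39 for plasma high against plasma none, and so did the difference between core and regulatory particle (0.22 to 0.35), whose highest value, 0.35, came with the outermost wells left out. With cells thinned to 50000 reads, plasma high against plasma low gave -0.10 for the particle and 0.23 for core against particle. The ratio of the particle changed sign in 1, 1 and 3 of 16 alternatives in plasma high against none, low against none and high against low. The members' median in plasma low against plasma none was 0.11 with a pseudocount of 5, 0.23 without the outermost wells and 0.074 to 0.19 without 1 TH number; in plasma high against plasma low it was -0.066 to 0.069 without 1 TH number. The number of members meeting the size rule was 8 in plasma high against none, 5 in low against none and 7 in high against low. It was 3 in low against none and 4 in high against low both as a mean over cells and with thinned cells. At 2-fold it was 3, 0 and 1. Without 1 TH number it ranged from 6 to 11, 7 to 10 and 7 to 11; the rule then asks for the same sign in fewer TH numbers. Of the alternative values of single members, 32 moved by more than the SD over TH numbers.

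Ratios were paired by TH number, although deviations of same-numbered sums correlated by only 0.031 to 0.090 and 0 of 9 pairs exceeded 0.1. A weak correlation over many genes cannot show whether a small gene set shares an effect of TH number, which was not tested. The columns differ in alignment between TH numbers, as given above. In every group the lowest core sum and the lowest particle sum fell at the same TH number. With the TH number as a replicate block in edgeR, the core ratio of plasma high over plasma none stood at 0.30, that of the particle 0.041 and their difference 0.26, with 8, 5 and 6 members past the size. Without replicate animals, no value here says how far mice differ.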
